A study of Mus musculus with 2 samples.

Results

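The Slit ligands Slit1, Slit2 and Slit3, the Robo receptors Robo1 and Robo2 and the cytoplasmic Robo partners Srgap1, Srgap2 and Srgap3 were described in nuclei of the mouse subventricular zone (SVZ). They are 8 of the 32285 genes counted and were chosen by symbol. Each was found as exactly 1 row in both matrices. Tissue came from mice of postnatal day 7, either healthy controls or mice that underwent modeled intestinal perforation (MIP) on postnatal day 5, 48 h before dissection. Snap-frozen SVZ was used for nuclei, with 1 library per group. The labels name neither strain nor sex nor how many animals a library holds. With 1 library per group, no test was made and every difference has no replicate check. All intervals are exact 95% intervals that cover counting error only. The comparison asks whether gut injury soon after birth goes with a different Slit and Robo makeup of this niche.

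Slits are large secreted proteins that bind the first immunoglobulin domain of Robo receptors, with heparan sulphate as a co-factor, and mostly repel growing axons and migrating cells. Inside the cell, Robo receptors recruit srGAPs, proteins with an F-BAR domain that bends membrane and a GAP domain that switches off small GTPases. In the SVZ, the stem cells belong to the astroglia, give rise to cycling progenitors and, through these, to neuroblasts that migrate to the olfactory bulb. Slits from the septum and the choroid plexus repel these neuroblasts, and neuroblasts make Slit1 themselves, to which Robo-bearing astrocytes respond.

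The control library held 16964 barcodes and 146730970 unique molecular identifiers (UMIs), of which 14579 nuclei were kept, and the MIP library 12366 barcodes, 100823376 UMIs and 10940 nuclei. Median depth was 5648 UMIs in kept control nuclei and 6030.5 in MIP nuclei, but nuclei of the MIP library were the shallower ones in each class compared. Clusters of low depth held 24.9% of control and 6.49% of MIP nuclei and enter no class. The libraries shared 115 barcodes, 0.678% and 0.930% of each. Xist, expressed in females, was at 1749 and 1.44 UMIs per 1000000 in control and MIP, and 4 Y-linked genes together at 0.313 and 473. Treatment, sex and library therefore cannot be told apart, although all members lie on autosomes. Nuclei were grouped into 10 classes named for their resemblance to a cell type, each of 100 or more nuclei per library, and 5 unnamed clusters are given by number. In all but 4 of these classes all markers of the class's list were higher than in the other nuclei in both libraries. The exceptions were 1 of 10 markers in the differentiating oligodendrocyte class of the MIP library, 1 of 10 in Lhx6 interneurons, 1 of 6 in Tshz1 Foxp2 neurons and 2 of 12 in cortical excitatory neurons.

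Levels below are UMIs of a gene relative to all UMIs of its class and library, scaled to 1000000 (CPM). Nuclear RNA is rich in introns, in which long genes can collect more UMIs, although whether the authors counted intron reads is not stated. Levels of different genes are therefore compared only per kilobase of gene span, and those of the Slits also per kilobase of exon. The spans on mm10 are wide. Slit1 lies at chr19:41600257-41743665 (143 kb), Slit2 at chr5:47983138-48307733 (325 kb) and Slit3 at chr11:35121224-35708507 (587 kb). Robo1 lies at chr16:72308306-73046095 (738 kb) and Robo2 at chr16:73891839-74411825 (520 kb). Srgap1 lies at chr10:121780991-122047315 (266 kb), Srgap2 at chr1:131285251-131527352 (242 kb) and Srgap3 at chr6:112717971-112947266 (229 kb). Robo1, Robo2, Slit1 and Srgap1 overlap no other counted gene in their annotated span. Slit2, Slit3, Srgap2 and Srgap3 overlap 5 non-coding genes with at most 433 UMIs in a library, of which 1 in Slit2 and 1 in Srgap3 lie on the opposite strand.

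**Figure D1:**
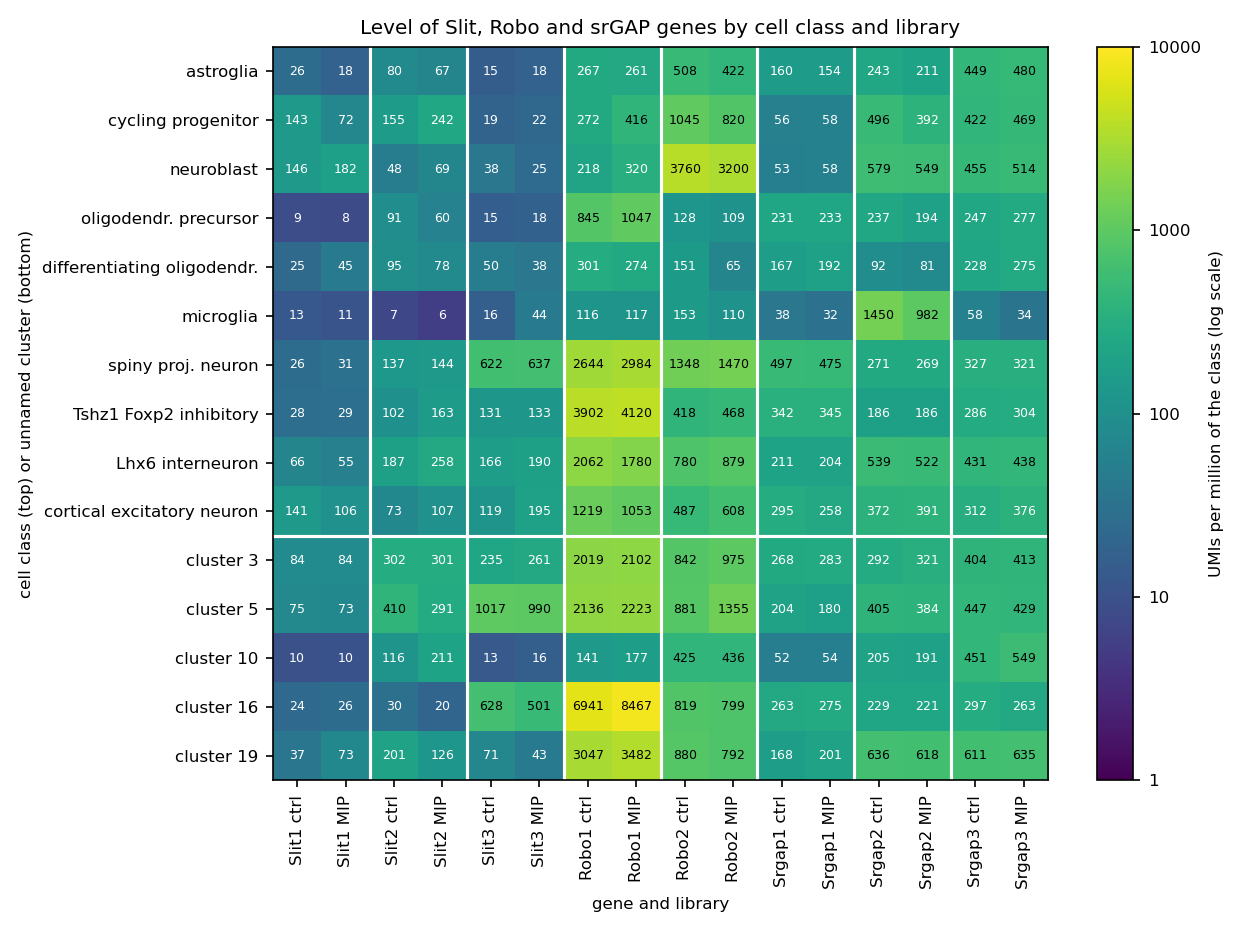
Level of the 8 genes (columns, control and MIP side by side) in 10 cell classes and, under the white line, 5 unnamed clusters (rows). Colour is CPM on a log scale and each cell prints the value. Robo2 peaks in neuroblasts at 3760.3 and 3199.9, Robo1 in cluster 16 and Srgap2 in microglia.

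Slit1, the ligand with the shortest gene, was highest in neuroblast-like nuclei among the classes of 50 or more nuclei per library, at 146 CPM (135 to 157) in control and 182 (163 to 202) in MIP. Cholinergic neurons, with 35 and 38 nuclei, were at 220.02 and 206. Cortical excitatory neurons followed at 141 and 106, and cycling progenitors, which divide and bear Egfr, at 143 and 71.8. The intervals of these 3 classes overlapped in the control library, so their order there is not resolved. Astroglia-like nuclei were at 25.7 and 17.8 and oligodendrocyte precursors at 8.72 and 8.19. Slit1 was thus higher in both libraries in the neuroblasts and cycling cells than in the astroglia, with intervals that did not overlap. After each nucleus was thinned to 2000 UMIs, 22.7% of control and 29.4% of MIP neuroblast-like nuclei had a Slit1 UMI, against 33.6% and 32.5% unthinned. In microglia, a class that should lack Slit1, the thinned shares were 2.99% and 2.01% and the unthinned 3.74% and 2.92%, at median depths of 3130 and 2694 UMIs against 3591 and 2445 in the neuroblasts. Thinning left out 21 control and 181 MIP neuroblasts and 20 and 78 microglia that were shallower.

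Slit2 was highest in fibroblast-like nuclei, at 423 CPM (371 to 479) and 469.8 (418 to 526), a class too small to be compared between libraries, with 83 and 129 nuclei. Cluster 5, unnamed and led by Tafa1, Ptprk and Tafa2, with the excitatory markers Sv2b and Slc17a7, was at 410.1 and 291. Its control interval (398 to 422) lay within that of the fibroblasts. Cluster 3, led by Zfp804b, Rmst and Car10, was at 302 and 301. Within the neurogenic classes Slit2 stood highest in the cycling progenitors, at 155 and 242, above the astroglia at 80.1 and 67.0 and the neuroblasts at 48.0 and 69.1. Microglia were lowest at 7.31 and 5.54. Thinned, 0 of 301 control microglia had a Slit2 UMI, which allows a share of up to 0.997% taken as 3 counts (exact 95% upper limit 1.22%), and 3 of 299 MIP microglia had one (unthinned shares 2.49% and 1.33%). In the cycling progenitors the thinned share was 19.2% and 27.5% (unthinned 33.2% and 38.2%), at median depths of 4671 and 3308 UMIs.

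Slit3 levels were highest in striatal neurons and cluster 5. Cluster 5 led, at 1017 CPM (998 to 1036) in control and 990.1 (974 to 1007) in MIP. Spiny projection neurons, the main striatal neurons, were at 622 and 637 and cluster 16, led by Sox1ot, Isl1 and Pde1a with Drd3 among its leading genes, at 628 and 501. In the glial and neurogenic classes Slit3 was low: 15.3 and 17.8 in astroglia, 19.1 and 22.0 in cycling progenitors and 38.4 and 25.3 in neuroblasts. Thinned shares of nuclei with a Slit3 UMI were 63.1% and 62.9% in spiny projection neurons (unthinned 93.6% and 89.3%, median depths 10867 and 7982 UMIs). They were 5.34% and 4.40% in neuroblasts (unthinned 8.96% and 6.11%) and 2.90% and 3.31% in astroglia (unthinned 7.04% and 6.27%, median depths 5536 and 3922). In microglia they were 4.32% and 3.01% (unthinned 5.30% and 4.77%). Slit3 in astroglia, below the microglia in control and within their counting error in MIP, is read as background. By these shares Slit3 in neuroblasts lay close to it. By level, control neuroblasts, at 38.4 CPM (33.2 to 44.2), lay above control microglia, at 16.4 (9.74 to 26.0). In MIP they were at 25.3 (18.7 to 33.6) against 44.3 (32.7 to 58.7) in microglia.

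Spiny projection neurons, the largest class, held 53.6% of all control and 44.2% of all MIP Slit3 UMIs, and cluster 5 another 26.0% and 36.7%. For Slit1 the neuroblasts held 11.7% and 7.18% of the UMIs, while cluster 3 held 27.5% and 26.2%. Per kilobase of span the highest Slit3 value, in cluster 5, was 1.73 and 1.69 CPM. Slit1 in neuroblasts was at 1.02 and 1.27 CPM per kilobase, and Slit2 was at 1.30 and 1.45 in fibroblasts and at 1.26 and 0.896 in cluster 5. Per kilobase of exon the order differed. Slit3 in cluster 5 was at 168 and 163, Slit1 in neuroblasts at 24.6 and 30.7 and Slit2 in fibroblasts at 16.6 and 18.5. Slit3 in cluster 5 thus came first by both measures in both libraries, while Slit1 and Slit2 changed places. Since intron use is not known, the full order of the ligands is not settled.

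Slit2 and Slit3 each carry a copy of the microRNA miR-218 in an intron, on the same strand as the gene. The sequences below are shown because these host genes differ in level between the classes, as given above, while the microRNA itself was not measured. They come from RefSeq (GRCm38.p6). The arm miR-218-5p is the same at chr5:48223966-48223986 in Slit2 and at chr11:35616840-35616860 in Slit3. The 3p arms, at chr5:48224005-48224026 and chr11:35616882-35616903, differ from each other. Capitals mark the seed, bases 2 to 8, and lower case the other bases.
mmu-miR-218-5p: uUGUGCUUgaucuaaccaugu
mmu-miR-218-1-3p: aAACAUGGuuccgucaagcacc
mmu-miR-218-2-3p: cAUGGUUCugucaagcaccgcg
The 3 arms carry 3 different seeds.

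Both receptors had UMIs in every class, and they peaked in different nuclei. Robo2 was highest in neuroblast-like nuclei, at 3760.3 CPM (3707 to 3814) in control and 3199.9 (3119.8 to 3281) in MIP. It was 1348 and 1469.9 in spiny projection neurons, 1045 and 820.1 in cycling progenitors and 508 and 422 in astroglia. Along the neurogenic classes taken whole, from astroglia through cycling progenitors to neuroblasts, the Robo2 level was thus higher at each step in both libraries, and no intervals of successive classes overlapped. This did not hold for all astroglia: their small cluster 22 was at 1787 and 1459.8, above the cycling progenitors. By thinned share of nuclei with a UMI, the first step was within counting error, at 41.5% (38.03 to 45.01) and 43.1% (39.6 to 46.7) in astroglia against 45.1% (40.04 to 50.2) and 44.9% (38.03 to 52.0) in cycling progenitors. Unthinned these shares were 64.3% and 58.7% against 58.3% and 50.9%. The nuclei with a UMI held on average 2.09 and 1.80 Robo2 UMIs in astroglia and 4.02 and 3.204 in cycling progenitors. Thinned, 93.1% of control and 92.0% of MIP neuroblast-like nuclei had a Robo2 UMI (unthinned 96.5% and 92.9%), against 18.9% and 18.1% of microglia (unthinned 25.9% and 22.8%). Robo2 in oligodendrocyte precursors, at 128 and 109 CPM, had thinned shares of 13.0% and 14.9% (unthinned 27.9% and 28.9%, median depths 5257 and 4273.5 UMIs). In differentiating oligodendrocytes the shares were 14.1% and 10.1% (unthinned 31.1% and 21.5%, median depths 6799.5 and 4829.5). Both lay below the microglia, and Robo2 there is read as background.

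**Figure D2:**
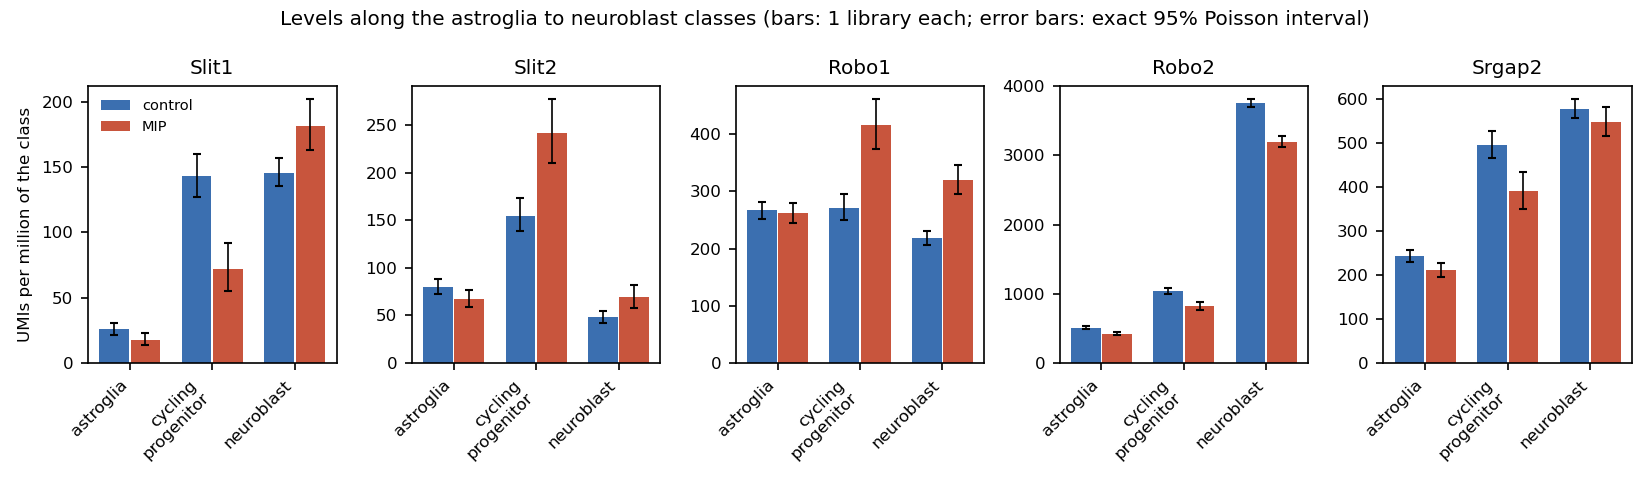
Levels of Slit1, Slit2, Robo1, Robo2 and Srgap2 (panels) in CPM of the class, in astroglia, cycling progenitors and neuroblasts, for control (blue) and MIP (red). Each bar is 1 library and error bars are exact 95% Poisson intervals. Over whole classes, the Robo2 level is higher from class to class in both libraries, and Slit2 peaks in the cycling progenitors.

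Robo1 was highest in cluster 16, at 6941 CPM (6816 to 7068) and 8467 (8265 to 8674), where every one of 266 control and 154 MIP thinned nuclei held a Robo1 UMI. Tshz1 Foxp2 inhibitory neurons followed at 3902 and 4119.9. Cluster 19, led by Il1rapl2 and Nxph1, was at 3047 and 3482 and spiny projection neurons at 2644 and 2984. Neuroblasts, at 218 and 319.9, and astroglia, at 267 and 261, lay far below these neurons. Oligodendrocyte precursors, the cells that give rise to myelin-forming glia, had 845 and 1047 CPM of Robo1 with thinned shares of 72.2% and 77.3% (unthinned 90.2% and 88.7%). The microglia were at 19.3% and 16.4% (unthinned 28.0% and 20.9%). In neuroblasts the thinned Robo1 share was 28.5% and 32.7% (unthinned 43.4% and 39.5%), above microglia by a smaller margin.

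Per kilobase of span, Robo2 in neuroblasts was at 7.23 and 6.15 CPM and Robo1 there at 0.296 and 0.434. In cluster 16 Robo1 was at 9.41 and 11.5 CPM per kilobase and Robo2 at 1.57 and 1.54. The order of the 2 receptors was therefore opposite in these 2 groups of nuclei, in both libraries. Spiny projection neurons held both, with 3.58 and 4.04 CPM per kilobase of Robo1 and 2.59 and 2.83 of Robo2.

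**Figure D3:**
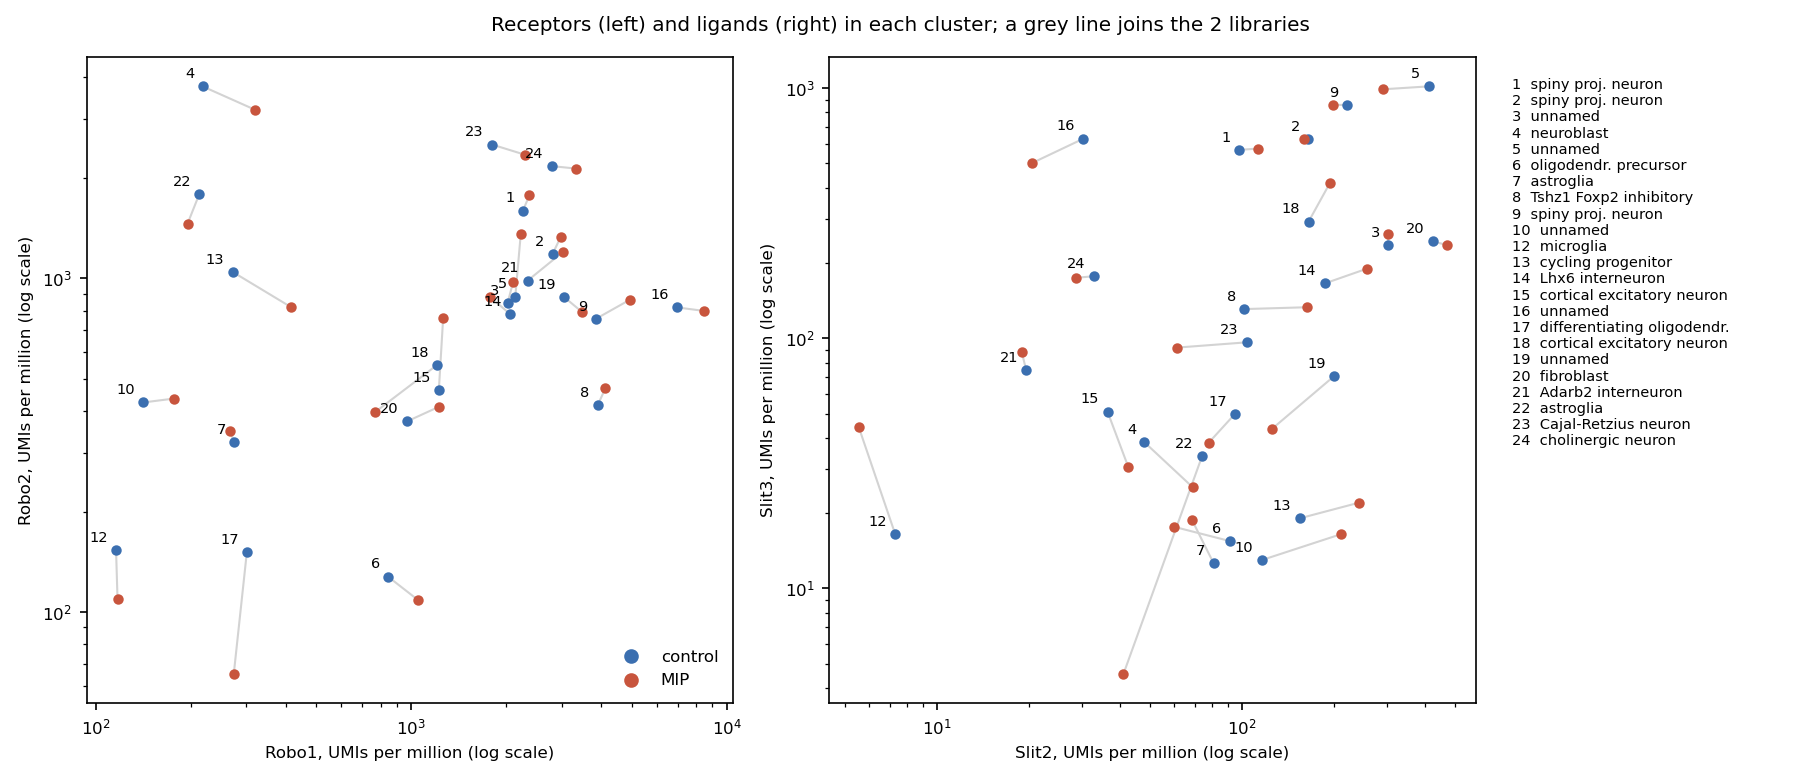
Left, Robo1 against Robo2; right, Slit2 against Slit3, in CPM on log axes, for each cluster with at least 20 nuclei in both libraries. Blue points are control and red points MIP, a grey line joins the same cluster, and numbers refer to the key. Neuroblasts (4) lie at high Robo2 and low Robo1, and cluster 16 at the highest Robo1.

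Within a class the receptors could differ between clusters. The small astroglia cluster 22, with 56 control and 33 MIP nuclei, had 1787 and 1459.8 CPM of Robo2, while the larger astroglia cluster 7 had 324 and 350.02. The Robo2 ratio of the class was -0.27 on the log2 scale, but cluster 7 alone was at 0.11 (-0.0022 to 0.23) and cluster 22 at -0.29 (-0.48 to -0.11). Among spiny projection neurons, cluster 1, with Drd1 among its markers, had 1597 and 1773 CPM of Robo2 and the Drd2 cluster 2 had 1183 and 1335. Cluster 9, led by Fstl4, Rarb and Foxp2 and also with Drd1 among its markers, had 756 and 862. The highest and the lowest of these Robo2 levels were thus both in clusters with Drd1. Robo1 ran the other way, at 2259.8 and 2367 in cluster 1, 2804 and 2980.1 in cluster 2 and 3846 and 4919 in cluster 9.

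The annotation of Robo2 bears on what its row can count. RefSeq lists 3 starts for Robo2 on the minus strand. The nearest lies at the end of the GENCODE M21 span, and the others 681 and 1035 kb upstream of it. A counted non-coding gene, Gm49678 (chr16:75388544-75447293, minus strand), begins at the most distant of these starts. It was picked after its values were seen. Gm49678 was at 226 CPM (214 to 239) and 324 (309 to 339.97) in cortical excitatory neurons and at 287 (278 to 298) and 247 (239 to 255) in cluster 5. In neuroblasts, where Robo2 peaks, it was at 5.29 (3.48 to 7.69) and 4.22 (1.82 to 8.32). There were 46.4 and 53.3 Gm49678 UMIs for every 100 Robo2 UMIs in cortical excitatory neurons, and 0.141 and 0.132 in neuroblasts. Across the 10 classes and 5 clusters, which share libraries and depth, the Pearson correlation of the log2 levels of Gm49678 and Robo2 was 0.23 (n = 15). Whether Gm49678 UMIs come from long Robo2 transcripts was not tested. The annotation release used for counting is not given. It is therefore not known whether the Robo2 row holds UMIs from between the GENCODE M21 span and the distant starts.

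The 250 bases upstream of each of the 3 RefSeq starts of Robo2 are shown because UMIs beside the distant start were found mostly in classes other than the one richest in Robo2. They come from RefSeq (GRCm38.p6), minus strand, at chr16:75447294-75447543, chr16:75092771-75093020 and chr16:74411826-74412075. Capitals mark E-boxes, CANNTG, a site shape of basic helix-loop-helix factors, which reads the same on both strands.
Robo2 distant start: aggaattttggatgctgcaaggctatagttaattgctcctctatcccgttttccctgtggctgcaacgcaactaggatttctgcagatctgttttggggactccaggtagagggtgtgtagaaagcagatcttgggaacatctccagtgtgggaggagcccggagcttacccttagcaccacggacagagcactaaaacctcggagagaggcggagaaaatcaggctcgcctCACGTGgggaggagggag
Robo2 middle start: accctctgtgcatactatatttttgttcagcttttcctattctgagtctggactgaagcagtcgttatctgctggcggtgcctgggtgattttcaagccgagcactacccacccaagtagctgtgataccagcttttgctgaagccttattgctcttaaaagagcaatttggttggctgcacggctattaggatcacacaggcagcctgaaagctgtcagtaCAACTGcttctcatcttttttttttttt
Robo2 near start: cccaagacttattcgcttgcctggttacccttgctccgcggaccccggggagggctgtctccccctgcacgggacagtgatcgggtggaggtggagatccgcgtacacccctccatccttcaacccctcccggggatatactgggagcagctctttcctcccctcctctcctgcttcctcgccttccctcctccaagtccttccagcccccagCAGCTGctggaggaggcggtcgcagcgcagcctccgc
Each window holds 1 E-box, and 66.2% of 32851 mouse promoter windows of this length hold at least 1, so the match is ordinary. The homeodomain core TAATTA was in none of the 3 windows, and 4.84% of all windows hold it. The CpG count was 8 in the distant window, 4 in the middle window and 14 in the near window. Of the members, 7 of 8 matched a RefSeq promoter entry, all but Slit1.

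The srGAPs were spread more evenly, with 1 exception. Srgap2, which shapes neuronal migration and synapse maturation, was highest in microglia, at 1450.5 CPM (1380 to 1524) in control and 982 (924 to 1043) in MIP. The next were cluster 19 at 636 and 618, neuroblasts at 579 and 549 and Lhx6 interneurons at 539 and 522. Thinned shares of microglia with a Srgap2 UMI were 89.0% and 84.3% (unthinned 93.5% and 86.2%), above the 61.7% and 59.5% of neuroblasts (unthinned 78.6% and 65.1%). Srgap1, which was first described as a Cdc42 GAP bound by Robo1, was highest in spiny projection neurons, at 497 and 475. It was low in neuroblasts, at 53.5 and 58.1, and in microglia, at 38.4 and 32.3, with thinned shares of 9.20% and 10.5% in neuroblasts (unthinned 16.7% and 12.9%) and 6.31% and 7.02% in microglia (unthinned 10.3% and 8.49%). Srgap3, also known as WRP and a Rac GAP, varied least of the 8 genes by this measure: its highest class mean was 1.81 times the median class mean. It was at 455 and 514 in neuroblasts, 449 and 480.1 in astroglia and 611 and 635 in cluster 19, and lowest in microglia at 57.5 and 34.2.

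Between the 3 srGAPs, neuroblasts therefore held little Srgap1 and much Srgap2 and Srgap3. Per kilobase of span, neuroblasts had 0.201 and 0.218 CPM of Srgap1, 2.39 and 2.27 of Srgap2 and 1.98 and 2.24 of Srgap3. Spiny projection neurons had 1.86 and 1.78 of Srgap1, 1.12 and 1.11 of Srgap2 and 1.43 and 1.40 of Srgap3.

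The 12 named classes of 50 or more nuclei per library and the 5 numbered clusters were ordered by their mean level. A class was counted as above its neighbour where its lower library lay above the neighbour's higher library. This held for 4 of 16 neighbouring pairs in Robo2 and 5 of 16 in Slit2, up to 9 of 16 in Robo1 and Srgap2, so most of these orders are resolved only in part. By this measure the first class of each gene lay above the next: neuroblasts in Slit1 and Robo2, fibroblasts in Slit2, cluster 5 in Slit3, cluster 16 in Robo1, spiny projection neurons in Srgap1, microglia in Srgap2 and cluster 19 in Srgap3. The measure leaves counting error aside. In control, the intervals of the first class and the next overlapped in Slit1 and in Slit2, so these first places are not resolved there. The highest mean level was 13.6 times the lowest in Srgap3 and 69.5 times in Slit2, the ends of the range over the 8 genes.

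Among 14247 genes with at least 500 UMIs, those with the most similar pattern over 12 named classes, by the Pearson correlation of log2(CPM + 10), are given as a description, since the classes share libraries and depth. Robo2 was most like Dapk1 (0.93), Efnb2 (0.92) and Gm45075 (0.90), and Robo1 most like Zkscan16 (0.95), Fndc8 (0.93) and Slc2a13 (0.92). Slit1 was most like Srrm4os (0.88), Trim2 (0.87) and Sel1l3 (0.87), Slit2 most like Clcn2 (0.85) and Dnajc10 (0.84), and Slit3 most like Stat4 (0.95), Gm20629 (0.92) and Focad (0.92). Srgap1 was most like Adgrl1 (0.94), Zkscan16 (0.93) and Ttc19 (0.93), Srgap2 most like Rftn1 (0.93), Mfsd14b (0.89) and Sncb (0.88), and Srgap3 most like Enah (0.97), Pxdn (0.95) and Mboat2 (0.93). For Slit2 the rule also gave Gm43824, which was at most at 0.778 CPM in any of these classes, too few UMIs for a pattern. Fndc8, Gm45075, Gm20629 and Stat4 were at most at 4.20, 8.75, 4.28 and 7.96 CPM, below the 10 CPM added, so their likeness rests on few UMIs. Enah, an actin regulator that binds Robo, is the gene among these that belongs to the lists of pathway genes below.

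Over all nuclei the members differed little between the MIP and the control library. No member was past 1.5-fold, where 2.87% of all genes tested were higher and 20.7% lower. The log2 ratio of MIP to control was 0.05 (-0.0043 to 0.10) for Slit1, 0.10 for Slit2, 0.23 (0.21 to 0.25) for Slit3, 0.16 (0.15 to 0.17) for Robo1 and 0.11 (0.097 to 0.12) for Robo2. For Srgap1 it was -0.03, for Srgap2 0.02 and for Srgap3 0.06, and the median of all genes was -0.20. Shares of classes differ between the libraries, so these values mix level and makeup.

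Within the 10 classes, 79 of 80 ratios had at least 20 UMIs over both libraries, and all but Slit2 in microglia are therefore described. Of these, 6 were at least 1.5 times higher and 5 at least 1.5 times lower in MIP, and their median log2 ratio was 0.02. Over the same classes, 3.38% to 11.8% of all genes tested were higher and 13.8% to 22.2% lower. These background shares depend on depth: among genes with at least 200 UMIs they were 1.70% to 14.0% higher and 5.18% to 11.5% lower. A scaling by trimmed means (TMM) would raise each log2 ratio by 0.03 in cycling progenitors up to 0.13 in spiny projection neurons and by 0.11 in astroglia. It would make the counts 8 higher and 3 lower.

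**Figure D4:**
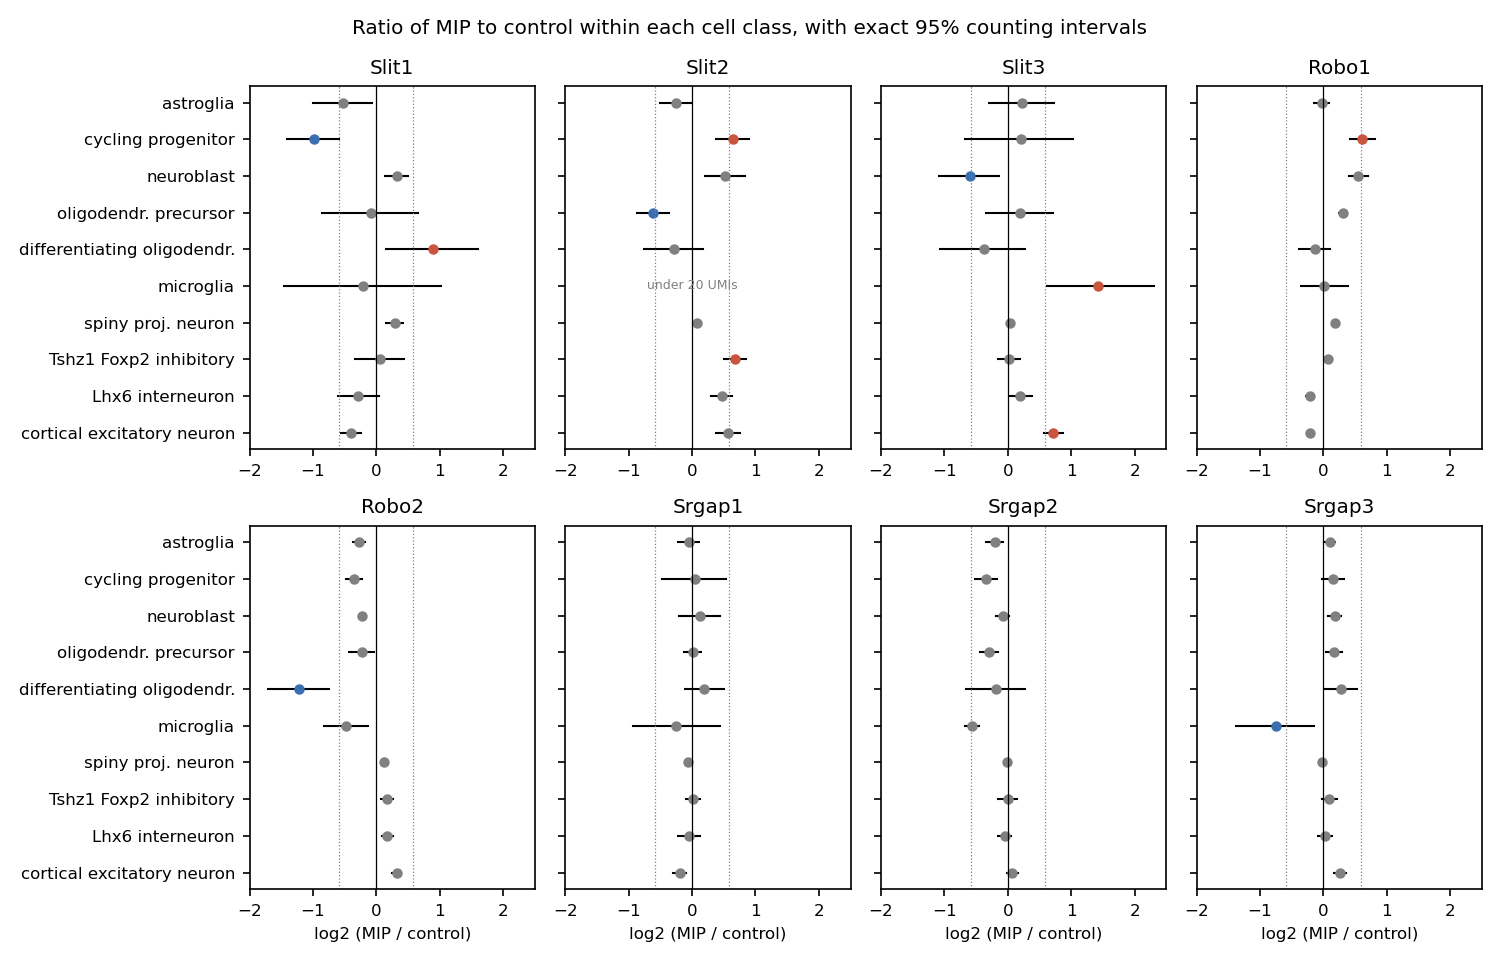
Log2 ratio of MIP to control (horizontal axis) of each gene (panels) in 10 classes (vertical axis), with exact 95% counting intervals. Dotted lines mark 1.5-fold; red points are at least 1.5 times higher in MIP, blue points at least 1.5 times lower. Points past the dotted lines sit mostly among the Slits and in the smaller classes.

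Cycling progenitors differed most among the neurogenic classes. Slit1 there was at 143 CPM in control and 71.8 in MIP, a log2 ratio of -0.99 (-1.41 to -0.59), from 292 and 62 UMIs. Slit2 was at 155 and 242, a ratio of 0.64 (0.38 to 0.90), and Robo1 at 272 and 416, a ratio of 0.61 (0.42 to 0.81). So 2 of 8 members were higher, where 7.72% of all genes tested in the class were, and 1 lower, where 13.8% were. With a minimum of 200 UMIs these shares were 2.86% and 5.18%, and 2 of 6 members were higher and 1 lower. Thinned, 81 of 386 control nuclei and 15 of 207 MIP nuclei had a Slit1 UMI (unthinned shares 36.6% and 16.7%). Without doublet removal, with finer clusters, with TMM scaling, with thinning and with a mean over nuclei the Slit1 ratio stayed past 1.5-fold, at -1.88 with thinning and between -1.30 and -0.93 with the others. With classes from marker scores alone it was -0.49. Slit2 there ranged from 0.28 to 0.72 and was past 1.5-fold in 2 of 6 alternatives, and Robo1 from 0.53 to 0.72 and in 5 of 6.

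In neuroblasts both receptors differed by less than 1.5-fold, in opposite directions. Robo2 had a log2 ratio of -0.23 (-0.27 to -0.19) and Robo1, from 1114 and 606 UMIs, 0.55 (0.41 to 0.70). The other ligands were at 0.32 (0.13 to 0.50) for Slit1 and 0.53 (0.21 to 0.84) for Slit2. Only Slit3, at 38.4 and 25.3 CPM, was past 1.5-fold, at -0.60 (-1.09 to -0.14), so that 0 of 8 members were higher, against 6.89% of all genes, and 1 lower, against 14.9%. It was at 0.50 with finer clusters and at 0.74 with classes from marker scores, so its direction rests on the grouping of nuclei. Robo2 kept its sign under each of 6 alternatives, from -0.37 to -0.20, but Robo1 ranged from 0.15 with finer clusters to 0.80.

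In astroglia, 0 of 8 members were past 1.5-fold, where 5.45% of all genes were higher and 15.9% lower. Slit1, from 126 and 60 UMIs, was at -0.53 (-0.998 to -0.075), Slit2 at -0.26 (-0.50 to -0.017) and Srgap2 at -0.20 (-0.34 to -0.068). In neither of its clusters alone did the interval leave out 0 for these genes: Slit1 was at -0.35 (-0.89 to 0.18) in cluster 7 and -0.35 (-1.40 to 0.60) in cluster 22. The thinned share of astroglia with a Slit1 UMI, 3.15% and 3.17% (unthinned 11.3% and 6.15%), was within the counting error of the 2.99% and 2.01% in microglia. Robo1 was at -0.03 (-0.15 to 0.095), and that difference was not detectable at this depth.

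In oligodendrocyte precursors Slit2 was at 91.3 and 59.9 CPM, a log2 ratio of -0.61 (-0.86 to -0.36). It was past 1.5-fold in 3 of 6 alternatives and at -0.50 with TMM scaling, -0.53 with thinning and -0.53 without doublet removal. It was the single member lower, where 16.2% of all genes were, and 0 were higher, where 4.08% were. Robo1, the main receptor of these cells, was at 0.31 (0.24 to 0.38). In differentiating oligodendrocytes, with 206 and 130 nuclei, Slit1 was at 0.89 (0.16 to 1.61) from 37 and 32 UMIs, and Robo2 at -1.21 (-1.70 to -0.75) from 228 and 46 UMIs. That is 1 member higher against 8.56% of all genes and 1 lower against 17.0%. With classes from marker scores Robo2 was at 0.55 and Slit1 at 0.02, and Robo2 is at background in this class.

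In microglia, Srgap2, the abundant member, was at -0.56 (-0.68 to -0.45), from 1588 and 1064 UMIs, just short of 1.5-fold. It was between -0.56 and -0.42 under each of 6 alternatives. Slit3, with 18 and 48 UMIs, was at 1.43 (0.62 to 2.30) and Srgap3, with 63 and 37, at -0.75 (-1.38 to -0.14). Of 7 members described 1 was higher, where 11.8% of all genes were, and 1 lower, where 22.2% were. Thinned to 2000 UMIs the Slit3 ratio was 0.0096.

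Among the neurons, spiny projection neurons had 0 of 8 members past 1.5-fold, where 3.38% of all genes were higher and 16.9% lower. With 100861 and 78062 UMIs, Robo1 was at 0.17 (0.16 to 0.19), and Robo2 at 0.12 (0.11 to 0.14), Slit3 at 0.03 (0.0061 to 0.063) and Srgap1 at -0.06 (-0.096 to -0.031). The class values mix clusters 1, 2 and 9, whose shares differed between libraries, with 357 and 436 nuclei in cluster 9. In these clusters, in that order, Robo1 was at 0.07, 0.09 and 0.36. Robo2 was at 0.15, 0.17 and 0.19, each above the class value. Slit3 was at 0.018, 0.0060 and 0.0048, and each interval held 0. Srgap1 was at -0.03, -0.09 and 0.07. Lhx6 interneurons, which include the Sst and Npy cells, likewise had 0 of 8, against 4.43% higher and 16.9% lower. Slit2 there was at 0.46 (0.30 to 0.63) and Robo1 at -0.21 (-0.27 to -0.16).

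In Tshz1 Foxp2 neurons Slit2 was at 102 and 163 CPM, a ratio of 0.68 (0.50 to 0.86), the single member higher, where 4.30% of all genes were, with 0 lower, where 15.1% were. It was past 1.5-fold in 4 of 6 alternatives, and at 0.40 with classes from marker scores. Robo1, the peak receptor of these neurons, was at 0.08 (0.047 to 0.11).

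In cortical excitatory neurons Slit3 was at 119 and 195 CPM, a ratio of 0.72 (0.58 to 0.86), with 1 member higher, where 5.46% of all genes were, and 0 lower, where 16.4% were. The class joins 2 clusters whose shares differed between libraries. Cluster 15, led by Dpp10 and Etl4 with the deep-layer genes Hs3st4 and Tle4, had 247 and 229 nuclei, and cluster 18, with Ptprk and Nr4a2 among its leading genes, had 99 and 183. Slit3 was at 50.9 and 30.6 in cluster 15, a ratio of -0.73 (-1.10 to -0.37), and at 292 and 419 in cluster 18, a ratio of 0.52 (0.35 to 0.68). Robo2 was at 462 and 763 in cluster 15 and 551 and 398 in cluster 18, ratios of 0.72 (0.63 to 0.81) and -0.47 (-0.61 to -0.33). The 2 clusters thus differed in direction for both genes, and the class values mix them.

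Among the 10 classes compared, the direction of Robo2 went with the kind of class, but this did not hold in every other group of nuclei. Its interval lay below 0 in all 6 classes without mature neurons, the astroglia, cycling progenitors, neuroblasts, precursors, differentiating oligodendrocytes and microglia, and above 0 in all 4 neuronal classes. The neuronal ratios ran from 0.12 to 0.32 and stayed above 0 under each alternative tried. Of the other 6, neuroblasts, astroglia and precursors kept a negative sign under each, while cycling progenitors, at -0.35, were at -0.02 with finer clusters and 0.15 with classes from marker scores. Microglia, at -0.48, were at 0.30 with marker scores. Outside these classes, cluster 19 was at -0.15 (-0.27 to -0.03), cluster 16 at -0.04, cholinergic neurons at -0.02, fibroblasts at 0.15 and cluster 10 at 0.04, and within the cortical class cluster 18 was at -0.47. Cajal-Retzius neurons were at -0.10 (-0.32 to 0.12) and cluster 25, with 4 control nuclei, at -0.08. The interval lay above 0 in Adarb2 interneurons, at 0.28 (0.15 to 0.42), cluster 3, at 0.21 (0.18 to 0.24), and cluster 5, at 0.62 (0.59 to 0.66). In precursors and differentiating oligodendrocytes Robo2 was at background, which was taken from the microglia. Whether Robo2 in the microglia is itself background was not tested. In astroglia the ratio of cluster 7 alone, 0.11, was not below 0. Neuroblasts, the class richest in Robo2, were 8.50% of the control library and 6.44% of the MIP library. Their part in the values of the classes at background and of the microglia was not tested.

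For the unnamed clusters given by number, only member ratios past 1.5-fold are listed below. No share of all genes past 1.5-fold was available for these clusters, so the ratios stand without one. In cluster 3 and in cluster 16 no member was past 1.5-fold. Slit1 in cluster 3 was at -0.0033 (-0.11 to 0.10) and Slit2 there at -0.0019 (-0.057 to 0.054). Robo2 in cluster 5 was at 881 and 1355 CPM, a ratio of 0.62 (0.59 to 0.66). At finer clustering, Tafa1 also led a group with Tafa2 and Epha3, of 20 control and 267 MIP nuclei, where Robo2 was at 2589.6 and 2817, and another with Ptprk and Pex5l, where it was at 873 and 1009. Slit2 in cluster 10, led by Gm29260, Slco1c1 and Slc1a3 with the cilia gene Dnah12, was at 116 and 211, a ratio of 0.86 (0.59 to 1.13). In cluster 19, Slit1 was at 36.7 and 73.0, a ratio of 0.99 (0.50 to 1.49). Slit2 there was at 201 and 126, a ratio of -0.68 (-0.97 to -0.39), and Slit3 at 70.6 and 43.4, a ratio of -0.70 (-1.22 to -0.20).

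The 43 other pathway genes, in 4 lists, had a pooled median above that of all genes in some classes and below it in others. The lists hold other receptors and ligands of the family (9 genes), heparan sulphate co-factors (10), cytoplasmic effectors (18) and genes of receptor trafficking and cleavage (6). Over all nuclei 1 was higher and 1 lower, beside 2.87% and 20.7% of all genes. Their median log2 ratio there was -0.05, against -0.20 for all genes. In neuroblasts 2 of 38 with enough UMIs were higher and 2 lower, and the median was -0.01, against -0.04. Of all genes, 6.89% were higher and 14.9% lower in that class. In cycling progenitors 4 of 36 were higher and 1 lower, beside 7.72% and 13.8% of all genes. In microglia 2 of 35 were higher and 7 lower, beside 11.8% and 22.2%, and the median was -0.19, against -0.11.

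Of the heparan sulphate genes, Sdc2, a syndecan, was at 16.5 and 35.4 CPM in neuroblasts, a ratio of 1.10 (0.62 to 1.58), and at 39.1 and 74.1 in cycling progenitors, a ratio of 0.92 (0.43 to 1.42). In astroglia Hs6st1, a sulphotransferase, was at -0.91 (-1.49 to -0.35) and Gpc1, a glypican, at -0.65 (-1.25 to -0.065), and Hs2st1 in oligodendrocyte precursors was at 0.62 (0.47 to 0.77).

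Of the effectors, Arhgap39, the homologue of the fly Robo partner Vilse, was at 74.1 and 144 CPM in oligodendrocyte precursors, a ratio of 0.96 (0.75 to 1.16). In microglia Evl, of the Ena/VASP family, was at 294 and 130.2, a ratio of -1.18 (-1.47 to -0.89), and Abl2, a kinase, at 174 and 378, a ratio of 1.12 (0.87 to 1.37). Sos1, a Rac and Ras exchange factor, was at 0.80 (0.50 to 1.09) in cycling progenitors. Of the trafficking genes, Ndfip2, an adaptor of Nedd4 ligases, was at -0.65 (-0.82 to -0.48) in cortical excitatory neurons.

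Of the other receptors, Dcc, the netrin receptor that Robo can bind, was at 686 and 1397 CPM in Lhx6 interneurons, a ratio of 1.03 (0.95 to 1.11), and its ligand Ntn1 at 78.5 and 32.9 there, a ratio of -1.26 (-1.63 to -0.89). Robo3, the divergent receptor, was at 2.88 and 1.15 in spiny projection neurons from 110 and 30 UMIs, a ratio of -1.33 (-1.96 to -0.74). Over all nuclei Robo3 had 290 and 187 UMIs and Robo4, the endothelial receptor, 31 and 11.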

How the data were processed

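Nuclei of 1 control and 1 MIP library were counted by the authors as UMI counts per gene with Cell Ranger 5.0.1 on mm10, per the submitters' processing notes. Intron use, annotation release and barcode filter: not given in the sources used here. The deposited counts were used as raw counts. Barcodes with under 500 genes or over 5% mitochondrial UMIs were removed. Scrublet's automatic threshold marked 0 barcodes, so the highest-scoring barcodes were removed as doublets (2271 in control and 1174 in MIP). Clustering (Scanpy 1.11.5, 3000 variable genes without the members and list genes, 40 components, 20 neighbours, Leiden resolution 1) gave 26 clusters. A cluster took the class with at least 3 markers among its 60 leading genes, ranked by fold with 50 CPM added. The graph, doublet and ranking settings were chosen after a first clustering had been seen. The members, markers and lists were chosen with earlier results of these data known.

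UMIs were summed per class and library. Levels have exact Poisson intervals and ratios the exact interval of the ratio of 2 Poisson counts, at 95%. Classes of 100 or more nuclei per library were compared. Ratios with at least 20 UMIs were counted as higher or lower from 1.5-fold, with no test, since each group has 1 library. The intervals were tried on counts simulated from the same Poisson model. Their coverage there follows from that model and does not cover spread between nuclei, clusters or libraries. Named pathway genes are, per class, up to 3 with a ratio of at least 1.5 and an interval without 1, furthest by the nearer bound. Alternatives were no doublet removal, resolution 2, marker scores, thinning, TMM (edgeR 4.0.16), a mean over nuclei, equal cluster weights and other UMI minimums. Leaving out low-depth clusters and describing finer neuroblast clusters were added after seeing the data. Gene spans are from GENCODE M21 and sequences from RefSeq (GRCm38.p6).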

Additional observations from a re-analysis of the deposited data

Results flagged for a closer look

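For each Slit, the direction of the MIP to control ratio differed between classes, with ratios past 1.5-fold on both sides of 0. Whether these classes differ from each other was not tested, because each group has 1 library. Slit1 was at -0.99 on the log2 scale in cycling progenitors and at 0.89 in differentiating oligodendrocytes, the latter from 37 and 32 UMIs. Slit2 was at 0.68 in Tshz1 Foxp2 neurons and 0.64 in cycling progenitors, against -0.61 in oligodendrocyte precursors. Slit3 was at 0.72 in cortical excitatory neurons and 1.43 in microglia, against -0.60 in neuroblasts, and its level in the last 2 classes is close to background.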

How the results depend on the processing

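Of the member ratios, 6 were at least 1.5-fold higher in MIP, and 4 to 8 under the alternatives. The count of 5 lower became 2 with classes from marker scores, 3 with TMM scaling and 3 with a mean over nuclei. Slit3 in neuroblasts changed direction to 0.50 at Leiden resolution 2 and to 0.74 with marker scores, and Robo2 in differentiating oligodendrocytes to 0.55 with marker scores. The cause was not tested. Classes from marker scores changed the sign of 18 of 79 ratios, thinning of 16 and a mean over nuclei of 10. Slit1 in cycling progenitors and Robo1 there were each past 1.5-fold in 5 of 6 alternatives. Over all nuclei, leaving out the low-depth clusters gave log2 ratios of 0.19 for Slit3 and 0.08 for Robo2. No paired analysis was possible because each group has 1 library. Depth limits Slit3 in glia and Slit2 in microglia, and no replicate spread could be measured.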
